A study of Homo sapiens with 9 samples.

Results

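The genes examined were 9 of the 38021 in the count table: DDX58, IFIH1, DHX58, TLR3, MB21D1, ZBP1, MAVS, TMEM173 and ADAR. They were chosen by name as components of nucleic acid sensing. The rule uses no measured value, but it was set with earlier results of these data known. The table lists 3 of them under older symbols: DDX58 is RIGI (RIG-I), MB21D1 is CGAS and TMEM173 is STING1. Each had its own row, with whole-number counts in all 9 libraries.

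The libraries came from 786-O, an established human line of renal carcinoma in which VHL is inactive and HIF2α is stable. The groups were shControl (a control hairpin, genotype given as WT), shARNT (ARNT knockdown) and shBMAL1 (BMAL1 knockdown), with 3 libraries each, labelled as biological replicates. All groups, controls included, had been infected with lentivirus made from a pLKO.1 vector and selected with puromycin. The labels do not say which hairpin each knockdown used, and loss of the target and other effects of a hairpin cannot be told apart here. Nor can a change shared by both knockdowns be told apart from a level particular to the shControl cells. Nothing in the labels says whether replicates came from separate infections, so the p values may measure technical spread only. The study asked what ARNT and BMAL1 each contribute to gene expression in these cells.

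Library totals ran from 33793045 to 35444735 reads. Normalised read counts below are reads divided by a size factor for each library, given as mean ± SD with n = 3. The targeted genes were lowest in their own knockdown: ARNT fell from 2352 ± 184 to 1225 ± 23.2 in shARNT, and BMAL1 (ARNTL in the table) from 761 ± 31.9 to 326 ± 29.2 in shBMAL1. Each was also called lower in the other knockdown: ARNT stood at 2014 ± 76.2 in shBMAL1 (log2 fold change −0.23, DESeq2 adjusted p 0.0187) and BMAL1 at 633 ± 57.8 in shARNT (−0.26, adjusted p 0.0293), and both of these calls were lost when single libraries were left out. Reads from mitochondrial genes took 5.46 to 7.14% of a library in shControl, 7.59 to 8.74% in shARNT and 8.71 to 9.66% in shBMAL1, and the part of this shift in the results was not tested. All 15 renal tubule and clear cell carcinoma markers were counted, and they summed to 175384 to 177958 normalised reads in shControl, 178365 to 184203 in shARNT and 192700 to 205821 in shBMAL1. CDH6 carried the rise of this sum, with group means of 13874, 27963 and 45693, while VIM went from 97978 to 86315 and 84879. Of these 15 markers 6 were lower and 5 higher in shARNT, and 5 were lower and 7 higher in shBMAL1. Of 15 leukocyte markers 5 were at 0 in every library, among them CD3E and TYROBP, and PTPRC had 3 reads over all 9 libraries. Endothelial and fibroblast markers (CDH5 at 0 throughout) summed to 258 to 317 normalised reads in shControl, 222 to 234 in shARNT and 358 to 423 in shBMAL1, where most of the rise was in LUM. The summed leukocyte markers, nearly all from CD68 and CSF1R, spanned 7634 to 8382 in shControl, 7072 to 7647 in shARNT and 5578 to 7020 in shBMAL1, and the part of these cell type markers in the results was not tested.

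As background, cells detect foreign or misplaced nucleic acid with a small set of receptors. RIG-I (DDX58) and MDA5 (IFIH1) are helicases that bind double-stranded RNA in the cytosol and signal through MAVS, an adaptor on the outer mitochondrial membrane. LGP2 (DHX58) is a related helicase that lacks the signalling domain and modulates the other two. TLR3 binds double-stranded RNA inside endosomes and signals through TICAM1, so it is a sensor outside the cytosol. cGAS (MB21D1) binds double-stranded DNA and makes a cyclic dinucleotide that activates STING (TMEM173) on the endoplasmic reticulum. ZBP1 binds nucleic acid in the Z conformation. ADAR edits adenosine to inosine in double-stranded RNA and so keeps the cell's own RNA from being sensed. These routes converge on the kinase TBK1 and the factors IRF3 and IRF7, which induce type I and III interferons. Several of the sensors are themselves induced by interferon.

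In brief, 6 members were lower in both knockdowns: the helicases DDX58, IFIH1 and DHX58, the DNA sensor MB21D1, its adaptor TMEM173, and ADAR. Over all genes tested, 19% were called lower in shARNT and 19.4% in shBMAL1. The share of all genes lower in both was not counted. TLR3 was lower in shARNT and higher in shBMAL1. MAVS was called in neither knockdown, and ZBP1 was almost unread. In these bulk libraries fewer cells that express a gene and less RNA per cell cannot be told apart.

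Genes were called at a DESeq2 adjusted p (Benjamini-Hochberg over all genes) under 0.1. Of the 9 members 8 were tested in each comparison, since ZBP1 did not pass the filter on low counts. In shARNT against shControl 7 of the 8 were lower and none was higher, and the median of their log2 fold changes was −0.49. Over all 15171 genes tested in that comparison 35.4% were called and 19% were called lower, with 16.5% called higher and a median of 0.0028. In shBMAL1 against shControl 6 of the 8 were lower and 1 was higher, with a median of −0.55. There 36.8% of 19047 genes were called, 19.4% lower and 17.4% higher, with a median of 0.016. Both comparisons use the same 3 shControl libraries, so their agreement on a member is not independent evidence. In the direct comparison of shBMAL1 with shARNT, 1 of the 8 members was called, as higher, against 36.3% of 17728 genes called, 17.8% of them higher and 18.6% lower as shares of the genes tested.

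**Figure D1:**
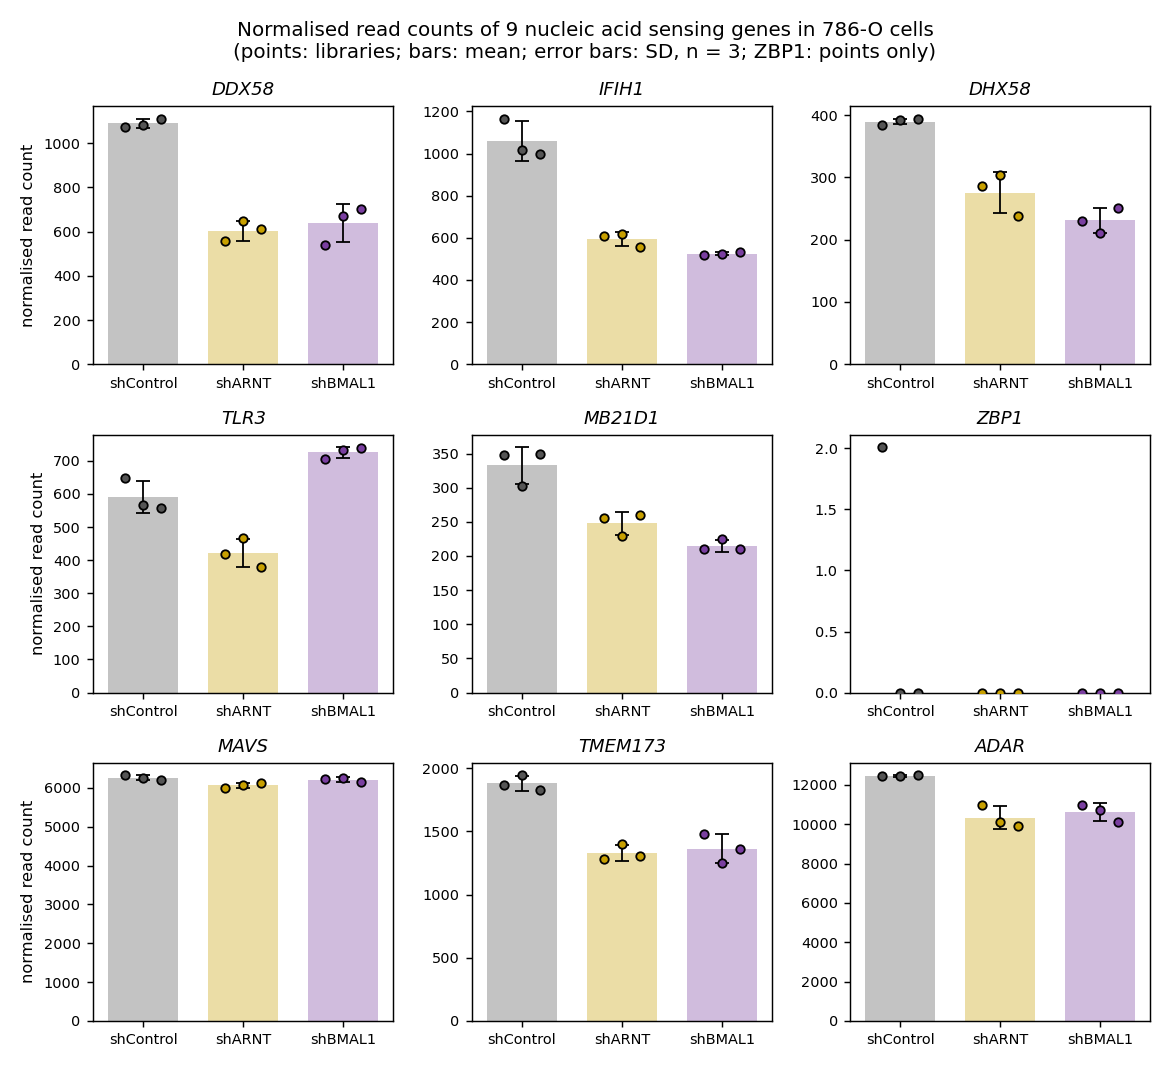
Normalised read counts (vertical axes, linear from 0, a separate scale for each gene) of the 9 members in shControl, shARNT and shBMAL1; points are libraries, bars are means and error bars are SD (n = 3), with points only for ZBP1. DDX58, IFIH1, DHX58, MB21D1, TMEM173 and ADAR are lower in every knockdown library than in every control library, while TLR3 is lowest in shARNT and highest in shBMAL1. The shARNT libraries of MAVS, which was not called, also lie below its controls. The share of all genes whose groups separate in this way was not counted.

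The helicases fell in both knockdowns. DDX58 (RIG-I; GRCh37 chromosome 9, 32455300 to 32526206, minus strand) had 1073, 1085 and 1112 normalised reads in the shControl libraries. It had 556, 646 and 611 in shARNT, and 541, 671 and 704 in shBMAL1. Every knockdown library lay below every control library, and the knockdowns overlapped each other. ARNT knockdown lowered it by a log2 fold change of −0.85 (SE 0.09, DESeq2 adjusted p 7.34e-20). BMAL1 knockdown gave −0.77 (SE 0.11, adjusted p 8.13e-12). The direct comparison gave 0.08 (95% interval −0.16 to 0.31, adjusted p 0.687), so no difference between the knockdowns was called. The annotation places a read-through locus over the same exons on the same strand, so some of these reads may be assigned to either.

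IFIH1 (MDA5; GRCh37 chromosome 2, 163123584 to 163175194, minus strand) also fell in both. Its values were 1166, 1015 and 996 normalised reads in shControl, 609, 620 and 558 in shARNT, and 518, 525 and 532 in shBMAL1. No library of any group overlapped another group. Its log2 fold change was −0.83 on ARNT knockdown (SE 0.09, adjusted p 1.26e-16). It was −1.01 on BMAL1 knockdown (SE 0.10, adjusted p 4.32e-22), the largest fall among the members in shBMAL1. Although shBMAL1 lay below shARNT throughout, the direct difference of −0.18 (95% interval −0.39 to 0.02) was not called at an adjusted p of 0.192.

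DHX58 (LGP2; GRCh37 chromosome 17, 40253422 to 40264732, minus strand) was read less often, with 384, 392 and 393 normalised reads in shControl. The shARNT libraries had 285, 303 and 239, and the shBMAL1 libraries 230, 211 and 252. The control libraries were close to each other and above all 6 knockdown libraries. The gene changed by −0.50 with ARNT knockdown (SE 0.13, adjusted p 0.00104) and −0.76 with BMAL1 knockdown (SE 0.14, adjusted p 2.76e-07). Between the knockdowns the difference was −0.26 (95% interval −0.56 to 0.04, adjusted p 0.213).

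The endosomal RNA sensor TLR3 (GRCh37 chromosome 4, 186990065 to 187009227, plus strand), moved in opposite directions in the knockdowns. It had 647, 568 and 558 normalised reads in shControl, 418, 466 and 381 in shARNT, and 707, 732 and 738 in shBMAL1. The groups did not overlap. TLR3 fell in shARNT (log2 fold change −0.48, SE 0.11, adjusted p 0.000196) and rose in shBMAL1 (0.29, SE 0.10, adjusted p 0.0175). The direct comparison was the largest difference between the knockdowns among the members, at 0.78 (95% interval 0.57 to 1.00, adjusted p 3.33e-11). The rise in shBMAL1 rested in part on 1 library: without shControl replicate 3 it was 0.25 with an adjusted p of 0.115. The fall in shARNT and the direct difference were called in all 12 alternative fits, with adjusted p values up to 0.0117 and 2.57e-06. TICAM1, the adaptor of TLR3, was also lower in shARNT (1168 ± 105 to 793 ± 75.4, −0.56, adjusted p 9.21e-08). In shBMAL1 it stood at 1035 ± 111 (−0.18, adjusted p 0.191). The direct difference of TICAM1 was 0.38 (adjusted p 0.00172).

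**Figure D2:**
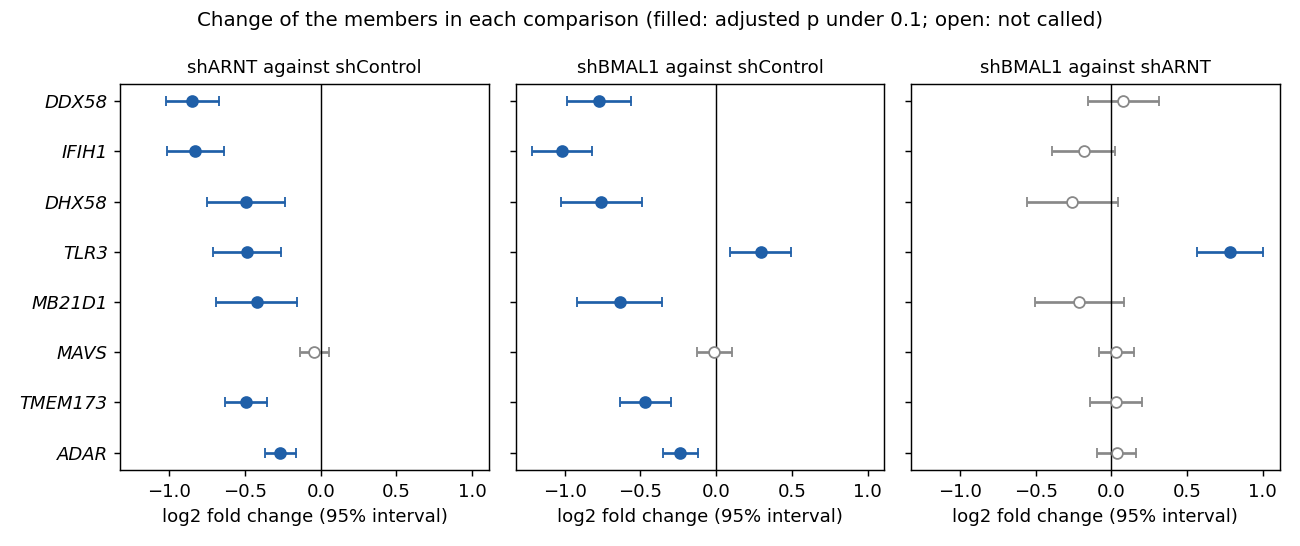
Log2 fold changes (horizontal axis) of the 8 tested members in panels for shARNT and shBMAL1, each against the controls, and for the direct comparison of the knockdowns; points are DESeq2 estimates, bars are 95% intervals, filled points have an adjusted p under 0.1 and open points were not called. In the right panel TLR3 (0.78) stands away from 0, and the intervals of the other 7 members include 0.

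The DNA-sensing arm was lower at both steps. MB21D1 (cGAS; GRCh37 chromosome 6, 74123238 to 74162020, minus strand) had 348, 302 and 349 normalised reads in shControl. It had 256, 229 and 259 in shARNT, and 210, 225 and 210 in shBMAL1. Each knockdown lay below the controls, by −0.42 (SE 0.14, adjusted p 0.00976) and −0.64 (SE 0.14, adjusted p 6.70e-05). The shBMAL1 libraries also lay below those of shARNT, but the direct difference of −0.21 (95% interval −0.50 to 0.08) was not called at an adjusted p of 0.314. Its exons share 180 bases with DDX43 on the opposite strand, which had 0 to 1 reads per library.

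TMEM173 (STING; GRCh37 chromosome 5, 138855118 to 138862520, minus strand) had 1866, 1946 and 1829 normalised reads in shControl. Values were 1285, 1404 and 1307 in shARNT, and 1481, 1251 and 1358 in shBMAL1. Knockdown libraries were again all below control libraries. The log2 fold changes were close, −0.49 (SE 0.07, adjusted p 5.41e-11) and −0.47 (SE 0.08, adjusted p 4.11e-07), and the direct difference was 0.03 (95% interval −0.14 to 0.21, adjusted p 0.84).

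MAVS, the adaptor shared by RIG-I and MDA5, differed from its receptors. MAVS (GRCh37 chromosome 20, 3827446 to 3856770, plus strand) had 6331, 6249 and 6200 normalised reads in shControl, 5997, 6073 and 6129 in shARNT, and 6223, 6266 and 6156 in shBMAL1. The shARNT libraries lay just below the controls, and of the shBMAL1 libraries 2 lay among the controls and 1 below them. The log2 fold change was −0.04 in shARNT (95% interval −0.14 to 0.05, adjusted p 0.569) and −0.01 in shBMAL1 (95% interval −0.13 to 0.10, adjusted p 0.911). At this depth the intervals leave out a change of the size seen for DDX58 or IFIH1.

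ADAR (GRCh37 chromosome 1, 154554171 to 154600489, minus strand), the editing enzyme, was the most read member. It had 12429, 12439 and 12497 normalised reads in shControl, 10995, 10116 and 9889 in shARNT, and 10987, 10721 and 10097 in shBMAL1. Control libraries stood above all knockdown libraries by a small margin. Its fall was −0.27 on the log2 scale with ARNT knockdown (SE 0.05, adjusted p 3.70e-06) and −0.23 with BMAL1 knockdown (SE 0.06, adjusted p 0.000535), with a direct difference of 0.04 (95% interval −0.09 to 0.16, adjusted p 0.747). ADAR has a constitutive short isoform and an interferon-inducible long isoform, and the counts do not separate them.

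ZBP1 (GRCh37 chromosome 20, 56178902 to 56195632, minus strand) had 2 reads in shControl replicate 1 and 0 in the other 8 libraries, where up to 3 counts per library could go unseen, counting error only. No comparison was possible at this level.

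Levels of different members can be compared only per length. On the RPKM scale, which divides reads by the length of the canonical transcript and by the library total, ADAR was highest in shControl at 53.7 ± 0.585, followed by TMEM173 at 24.7 ± 0.695, MAVS at 15.2 ± 0.32, IFIH1 at 8.43 ± 0.84, DDX58 at 6.71 ± 0.108 and DHX58 at 4.29 ± 0.0224. MB21D1 at 2.97 ± 0.264 and TLR3 at 2.80 ± 0.263 did not differ beyond their spread. In shBMAL1 TLR3 stood at 3.52 ± 0.137, above DHX58 at 2.60 ± 0.247 and MB21D1 at 1.96 ± 0.0947. The shBMAL1 level of IFIH1 (4.28 ± 0.123) lay within the spread of DDX58 (4.04 ± 0.605). Among 16482 genes with a length and reads in shControl, ADAR lay at the 91.8th percentile by this measure, DDX58 at the 58.7th and TLR3 at the 44.4th. These levels depend on the length used. Divided by the length of all annotated exons, the shControl RPKM was 29.0 for ADAR, 15.2 for MAVS, 11.2 for TMEM173, 5.78 for IFIH1, 3.00 for DDX58, 2.91 for DHX58, 2.27 for MB21D1 and 2.25 for TLR3. MAVS then stood above TMEM173, and DDX58 was close to DHX58.

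**Figure D3:**
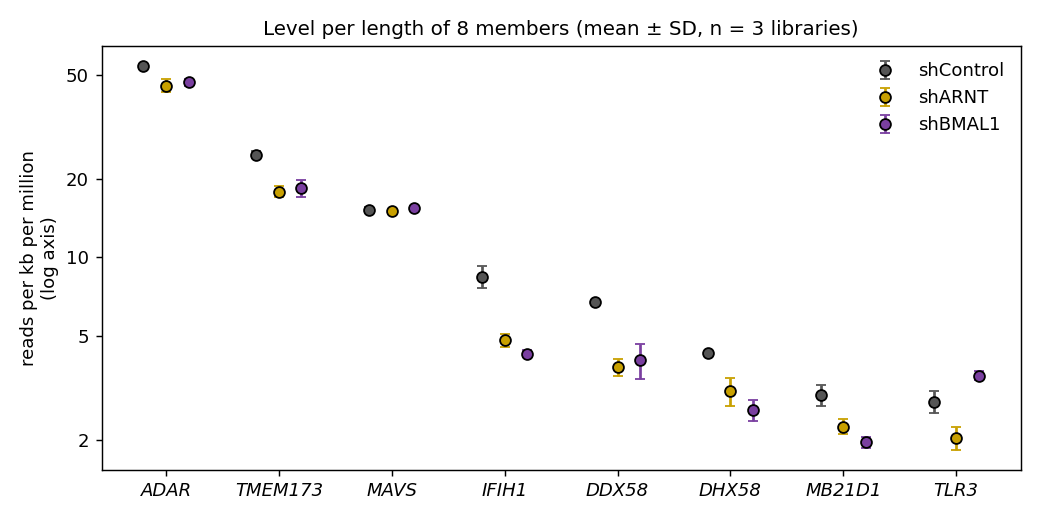
Level per length in RPKM, from the canonical transcript (vertical log axis), of 8 members in shControl, shARNT and shBMAL1; points are means and error bars SD over 3 libraries, and ZBP1, at 0 in most libraries, is left out. ADAR (53.7 in shControl) is highest, and TLR3 stands out by a shBMAL1 level (3.52) above its shControl level (2.80) by more than their spread, while MAVS is nearly level across the groups.

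The promoters of the members were read for short motifs, among them that of interferon-responsive genes. Whether a motif goes with a change in reads was not tested. RefSeq windows on GRCh38.p14 from 250 bases before to 50 after an annotated start held 5 of the 9 members (7 windows, 3 of them for ADAR). DHX58, MB21D1, TMEM173 and ZBP1 were not matched. The core searched was GAAA and GAAA with 2 bases of any kind between them, and the same with 1 spacer base. The E-box CACGTG, which BMAL1 with CLOCK binds, and the hypoxia response cores ACGTG and GCGTG, which HIF with ARNT binds, were searched too, all on both strands. The E-box contains ACGTG. The motifs were chosen after the windows had been seen. For each member with a match to the interferon motif or the E-box, the match nearest to the start is shown 5′ to 3′ on the strand of the gene, in 30 bases, with the matched letters in capitals, so that the letters behind each match can be read.
IFIH1 (chr2:162318686-162318715, minus strand): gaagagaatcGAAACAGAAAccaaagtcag
TLR3 (chr4:186069142-186069171, plus strand): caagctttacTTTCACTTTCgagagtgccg
DDX58 (chr9:32526380-32526409, minus strand): ggtgcggaggGAAACGAAActagcccgagg
ADAR (chr1:154628014-154628043, minus strand): aagaggttgaatCACGTGgttcttcctccc

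IFIH1 held the core 21 bases before its start, as shown, and a further pair of overlapping matches on the other strand that begin 159 and 153 bases before it. TLR3 held it across the start itself, with its first base 4 bases before, on the opposite strand. DDX58 held the single-spacer form 203 bases before its start. Neither form was in the MAVS window or in the 3 ADAR windows, and the E-box was, among these 7 windows, in the 2 overlapping ADAR windows only. ACGTG was in the same 2 ADAR windows, and GCGTG in those and in the windows of DDX58 and MAVS. The core was present for 4.38% of 27305 genes with a window, the single-spacer form for 3.87% the E-box for 8.77%, ACGTG for 24.9% and GCGTG for 40.6%. Among 51 interferon-stimulated genes of a hand-written list, 36 (70.6%) held the core, 35.3% the single-spacer form, 9.80% the E-box, 25.5% ACGTG and 33.3% GCGTG. These letters do not show that any factor was bound.

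By the root mean square difference of centred log2 normalised counts over the 9 libraries, the genes most like IFIH1 among 11822 were ZNF175 (0.077), PYGL (0.081) and PLSCR1 (0.087), against a median of 0.46. PLSCR1 is an interferon-inducible phospholipid scramblase and PYGL the liver glycogen phosphorylase. In shControl, shARNT and shBMAL1 ZNF175, a zinc finger protein gene, had 1192 ± 86.5, 654 ± 51.1 and 592 ± 36.7 normalised reads. PYGL had 6981 ± 463, 4175 ± 108 and 3573 ± 224, and PLSCR1 had 2479 ± 297, 1273 ± 63.4 and 1211 ± 42.6. IFIH1 alone met the rule for this search, a mean of at least 100 and group means at least 2-fold apart.

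The surrounding pathway was described with lists of named genes, none of which contains a member. Beside the counts of each list stand the shares over all genes tested. These were 19% lower and 16.5% higher in shARNT, and 19.4% lower and 17.4% higher in shBMAL1. Of the interferon-stimulated genes 5 also stand in another list. Interferon genes themselves were almost unread. Of 21 in the table, 15 were at 0 in every library, and IFNB1 had 1 read, in shControl replicate 1. IFNL1, a type III interferon, had 2, 3 and 4 reads in the shControl libraries and 0 in all 6 knockdown libraries, too few for a test. IFNE had 0 to 5 reads per library in shControl, 4 to 5 in shARNT and 3 to 14 in shBMAL1. IFNW1 had 0 to 2 reads per library.

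Interferon-stimulated genes fell widely. In shARNT 54 of 58 tested genes were lower and 1 was higher, with a median log2 fold change of −0.59. In shBMAL1 50 of 59 were lower and 2 higher, with a median of −0.80. OAS2, an oligoadenylate synthetase, went from 1142 ± 56.1 normalised reads to 77.7 ± 12.6 and 66.3 ± 10.2. EPSTI1 changed by −2.69 and −2.68, and MX2, an antiviral GTPase, by −2.53 and −3.42. TRIM5, a retroviral restriction factor, rose in both (0.24, adjusted p 0.00244; 0.22, adjusted p 0.0437). The members' medians, −0.49 and −0.55, were nearer to 0 than those of this list.

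Of a list of other sensors, 7 were lower and 8 higher of 35 tested in shARNT, with a median of −0.01. In shBMAL1 16 were lower and 3 higher of 36, with a median of −0.13. The shARNT shares, 20% lower and 22.9% higher, compare with 19% and 16.5% of all genes. Those in shBMAL1, 44.4% and 8.33%, compare with 19.4% and 17.4%. NLRP3, an inflammasome receptor, went from 109 ± 17.2 normalised reads to 35.1 ± 9.86 and 15.2 ± 3.22, and differed between the knockdowns (−1.21, adjusted p 0.0275). EIF2AK2 (PKR), the kinase that halts translation on binding double-stranded RNA, fell from 1630 ± 52.2 to 1104 ± 30.9 and 1056 ± 110 (−0.56 and −0.63), with no difference called between the knockdowns (−0.06, adjusted p 0.677). DHX33 was lower in shBMAL1 (−1.04, adjusted p 7.61e-19) and not called in shARNT (−0.09, adjusted p 0.541). XRCC5 (Ku80) and POLR3K, a subunit of RNA polymerase III, rose in shARNT (0.33 and 0.30) and were not called in shBMAL1 (−0.13, adjusted p 0.167; −0.10, adjusted p 0.531). DHX36 rose in both (0.25 and 0.23), and NLRX1, a mitochondrial inhibitor of MAVS signalling, rose in shBMAL1 (0.29, adjusted p 0.0109).

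Downstream adaptors, kinases and factors were lower for 9 and higher for 4 of 39 genes in shARNT, and lower for 19 and higher for 3 of 40 in shBMAL1, with medians of −0.07 and −0.21. IRF7, the interferon-inducible factor that amplifies interferon transcription, went from 232 ± 23.7 to 73.4 ± 9.34 and 80.1 ± 7.98 normalised reads (−1.65 and −1.53). NFKB2 fell more in shBMAL1 (−0.99) than in shARNT (−0.44), with a direct adjusted p of 2.11e-11. CHUK (IKKα) rose in shARNT (0.39, adjusted p 3.29e-06) and fell in shBMAL1 (−0.22, adjusted p 0.0654). TBKBP1, a TBK1 adaptor, rose in both (0.46 and 0.53), and AZI2, another, rose in shBMAL1 (0.34, adjusted p 0.0152).

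**Figure D4:**
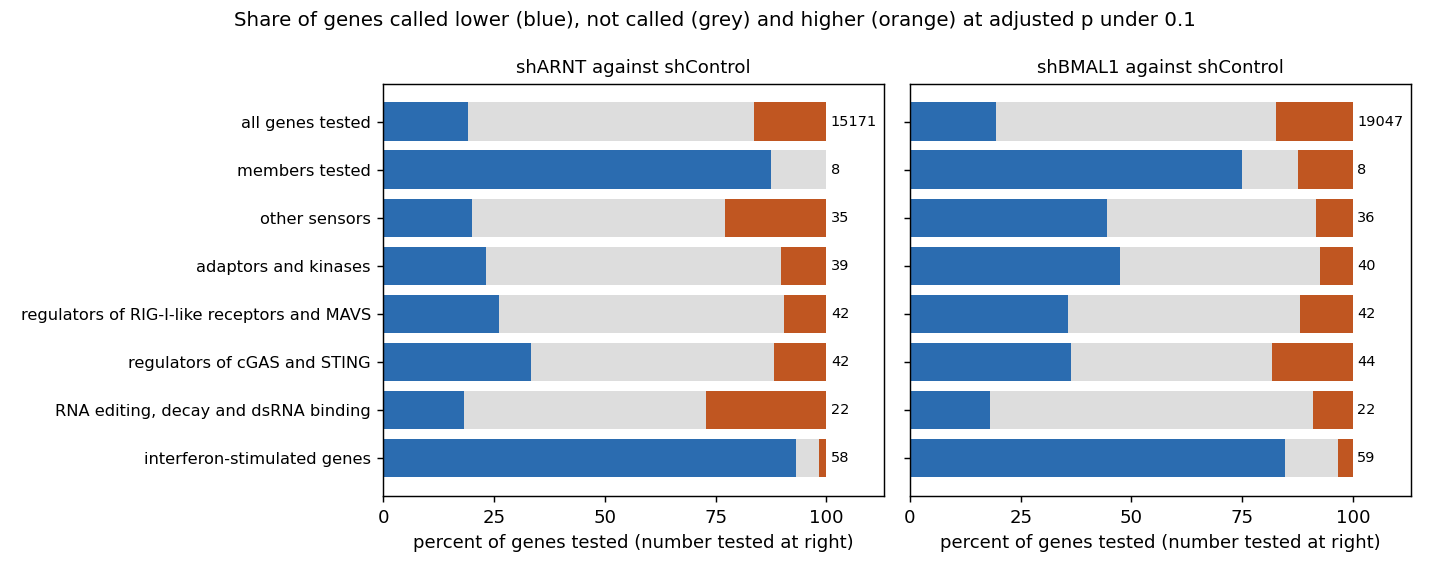
Percent of tested genes (horizontal axis) called lower (blue), not called (grey) or higher (orange) at a DESeq2 adjusted p under 0.1 in each knockdown, for all genes, the tested members and 6 gene lists; the number tested stands at the right of each bar. Members and interferon-stimulated genes are mostly blue in both panels, against 19% and 19.4% of all genes.

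Regulators of the RIG-I-like receptors and MAVS were lower for 11 and higher for 4 of 42 in shARNT, and lower for 15 and higher for 5 of 42 in shBMAL1, with medians of −0.04 and −0.10. TRIM14, an adaptor at MAVS, fell from 2215 ± 74.2 to 1080 ± 112 and 928 ± 16.8 normalised reads. OTUB2, a deubiquitinase, fell further in shBMAL1 (−2.10) than in shARNT (−1.08), with a direct adjusted p of 2.02e-05. RNF135 (Riplet), a ubiquitin ligase that activates RIG-I, rose in shBMAL1 (0.29, adjusted p 0.0281) with −0.03 in shARNT (adjusted p 0.897). TKFC, which restrains MDA5, fell in shARNT (−0.30, adjusted p 0.0148) and rose in shBMAL1 (0.52, adjusted p 2.04e-06). TARBP2 and OTUD4 rose in shARNT (0.34 and 0.25).

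Regulators of cGAS and STING were lower for 14 and higher for 5 of 42 in shARNT, and lower for 16 and higher for 8 of 44 in shBMAL1, with medians of −0.08 and −0.10. SAMHD1, which depletes the nucleotides needed to copy viral DNA, fell from 2143 ± 50.3 to 1079 ± 48.3 and 858 ± 42 normalised reads, with a direct difference of −0.33 (adjusted p 0.00136). USP18, the ISG15 protease, showed the same order (−0.81 and −1.31, direct adjusted p 0.00139). LRRC8A, a channel subunit that passes cyclic dinucleotides, rose in both (0.65 and 0.23), as did TRIM38 (0.50 and 0.41). SLC46A1, a folate transporter, rose in shBMAL1 (0.81, adjusted p 4.20e-05), with −0.19 in shARNT (adjusted p 0.515). TTLL6 rose in shBMAL1 (0.65, adjusted p 0.0522) from a low level of 51.3 ± 4.56 normalised reads.

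Genes of RNA editing, decay and double-stranded RNA binding, to which ADAR is related by function, were lower for 4 and higher for 6 of 22 in shARNT, and lower for 4 and higher for 2 of 22 in shBMAL1, with medians of 0.06 and −0.03. The lower share, 18.2% in each knockdown, was near that of all genes (19% and 19.4%). The higher shares, 27.3% and 9.09%, compare with 16.5% and 17.4%. STAU1, which binds double-stranded RNA, fell in shARNT (−0.50, adjusted p 1.46e-16) with 0.00073 in shBMAL1 (adjusted p 0.995). The direct difference was 0.51 (adjusted p 3.93e-15). ILF2 fell in shARNT (−0.20, adjusted p 0.000735). DROSHA fell in both (−0.18 and −0.31). AIMP2 rose in shARNT (0.19, adjusted p 0.0118) and fell in shBMAL1 (−0.29, adjusted p 0.00497). CDKN2AIP and DICER1 were called higher in shBMAL1 (0.39, adjusted p 0.0843; 0.22, adjusted p 0.0779).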

How the data were processed

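RNA from 9 libraries was sequenced as paired ends by BGI. Per the study's methods, the authors aligned reads to GRCh37 with SeqMan NGen and exported counts with ArrayStar, while the submitters' processing notes name STAR and hg38. The deposited values are estimated counts (total reads per gene), with 0.009 in place of 0. The annotation and strand setting were not given in the sources used here. Here 0.009 was set to 0, fractional values (6.14% of the nonzero) were rounded, and 53 rows with a repeated gene name were summed into 1 row per name. Another 28 rows whose symbols had become dates were kept but not named.

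Each comparison was fitted on its 6 libraries over the whole table with DESeq2 version 1.42.0 in R version 4.3.3 (Wald test, two-sided, Benjamini-Hochberg adjustment, independent filtering, called at an adjusted p under 0.1). Intervals are 95% Wald intervals. Alternatives were edgeR version 4.0.16 (quasi-likelihood test, TMM), TMM size factors, a filter of 10 counts in 3 libraries, no independent filtering, a fit of all 9 libraries, a replicate block, a threshold of 0.05, a minimum of 1.5-fold, and leaving out each library. The fits were also run on simulated data, and the outcome is not reported here. Members and lists were chosen with earlier results of these data known. Genes named beside the members were, in each list and knockdown, the 2 with the lowest and the 2 with the highest log2 fold change among called genes with a mean of at least 50, and interferon genes read in at least 3 libraries; IFNB1 was named after its values were seen, and some genes that met the rule are not reported here. Replicates of a group differed by more than sampling noise (chi-square per degree of freedom 7.6 to 17.6). Gene positions are from GENCODE on GRCh37 and promoter windows from RefSeq on GRCh38.p14.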

Additional observations from a re-analysis of the deposited data

Results flagged for a closer look

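TLR3 was marked for a closer look because its response differed between the knockdowns by the direct test: its log2 difference of shBMAL1 from shARNT was 0.78 (DESeq2 adjusted p 3.33e-11), with all 3 shBMAL1 libraries above and all 3 shARNT libraries below the 3 shControl libraries. None of the other 7 tested members differed in this test at an adjusted p under 0.1, and their adjusted p values ran from 0.192 to 0.84.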

How the results depend on the processing

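Calls of the members in each knockdown against shControl kept their direction and their side of the threshold in all 12 alternative fits, except TLR3 in shBMAL1, which was not called without shControl replicate 3 (0.25, adjusted p 0.115). The direct difference of TMEM173, not called in any fit, ranged from −0.029 without shBMAL1 replicate 1 to 0.091 without shBMAL1 replicate 2. Leaving out single libraries took the fall of BMAL1 in shARNT to −0.23 without shControl replicate 2 and −0.19 without shARNT replicate 3, and that of ARNT in shBMAL1 to −0.16 without shControl replicate 2 and −0.19 without shBMAL1 replicate 2, none of them called.

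A minimum change of 1.5-fold, which by its construction removes small changes, moved the counts. It left 2 members in shARNT and 4 in shBMAL1. Over all genes it left 1200, 2606 and 2058 in shARNT, shBMAL1 and the direct comparison. In the same order it left 1, 7 and 3 other sensors, 1, 6 and 2 adaptors and kinases, 4, 5 and 2 regulators of RIG-I-like receptors and MAVS, 4, 9 and 4 regulators of cGAS and STING, and 0 genes of RNA editing in each. Of interferon-stimulated genes it left 29, 38 and 5.

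Replicate numbers did not pair the libraries, since correlations of same-numbered libraries ran from −0.154 to 0.105, and the fit with the replicate block called 7, 7 and 1 members in the 3 comparisons. Over all genes that fit called 4151, 5743 and 5386, against 5376, 7005 and 6438 in the main fit. ZBP1 and most interferon genes had too few reads to be compared.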
